A study of Mus musculus with 15 samples.

Results

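The slow and fast troponin and myosin light chain genes of mouse skeletal muscle were examined in 15 RNA sequencing samples. The genes were taken from a fixed list by their symbols, 10 of 55536 genes in the deposited tables. The slow set held Tnnt1, Tnni1, Tnnc1, Myl2 and Myl3, and the fast set held Tnnt3, Tnni2, Tnnc2, Mylpf and Myl1. All 10 were found in both tables and all 10 passed the filter on low values in each comparison.

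The study compared skeletal muscle of male mice aged 2 months in 3 groups of 5 samples. The control group was wild type. The knockout group lacked PdgfrB, the platelet-derived growth factor receptor beta, and the D489V group carried a constitutively active form of the receptor, each described as specific to cells that express myogenin. Myogenin marks differentiating muscle cells, so the receptor in other cells of the muscle was not described as altered. The labels did not give the muscle taken, the strain, the Cre line or allele design, or whether the controls carried a Cre, and they did not state that replicates came from separate animals. The p-values below therefore measure the spread between these samples.

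The troponin complex sits on the thin filament and switches contraction on when calcium rises. Troponin C binds the calcium, troponin I holds back the interaction of actin and myosin, and troponin T ties the complex to tropomyosin. The essential and regulatory light chains wrap the neck of the myosin heavy chain and tune its force and speed. Slow and fast fibres use different genes for each of these proteins, and slow genes Tnnc1, Myl2 and Myl3 are also used by heart muscle. The balance of slow and fast forms can therefore reflect the fibre types present in a sample.

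The slow members rose and fell together over the samples, and their upstream sequences are shown for what they share in letters. RefSeq on GRCm38.p6 gave 10 start sites for 8 of the 10 genes. The 250 bases before a start are printed 5′ to 3′ for 4 slow and 2 fast genes whose start lay within 32 bases of a transcript start in GENCODE M21. Capitals mark matches on either strand to the E-box CANNTG, the MCAT motif CATTCC and the serum response motif CArG, all of them motifs of muscle gene promoters. The MEF2 motif was searched in the same way, and none of these motifs overlapped another in the 6 sequences.

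The slow genes were these.
Tnnt1, chr7:4515976-4516225, minus strand: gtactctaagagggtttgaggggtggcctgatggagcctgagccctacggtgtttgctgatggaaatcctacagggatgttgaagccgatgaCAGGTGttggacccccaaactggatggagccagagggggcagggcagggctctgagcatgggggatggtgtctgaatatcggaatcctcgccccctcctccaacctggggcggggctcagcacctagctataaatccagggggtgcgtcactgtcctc
Tnni1, chr1:135799171-135799420, plus strand: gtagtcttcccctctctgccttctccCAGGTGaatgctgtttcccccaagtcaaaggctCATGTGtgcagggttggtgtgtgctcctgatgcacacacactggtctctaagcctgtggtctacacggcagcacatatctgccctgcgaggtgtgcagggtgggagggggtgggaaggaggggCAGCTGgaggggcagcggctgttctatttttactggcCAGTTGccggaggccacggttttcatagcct
Tnnc1, chr14:31208062-31208311, plus strand: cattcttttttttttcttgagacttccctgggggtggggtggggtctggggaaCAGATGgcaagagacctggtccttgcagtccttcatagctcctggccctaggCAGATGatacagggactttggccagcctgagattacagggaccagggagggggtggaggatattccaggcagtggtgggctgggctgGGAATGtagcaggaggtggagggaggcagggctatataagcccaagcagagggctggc
Myl3, chr9:110763428-110763677, plus strand: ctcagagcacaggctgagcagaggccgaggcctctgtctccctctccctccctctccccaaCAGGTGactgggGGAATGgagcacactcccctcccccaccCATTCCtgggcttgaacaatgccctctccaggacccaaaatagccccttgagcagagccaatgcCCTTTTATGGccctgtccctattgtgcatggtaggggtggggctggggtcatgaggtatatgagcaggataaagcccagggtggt

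The fast genes were these.
Tnnc2, chr2:164779735-164779984, minus strand: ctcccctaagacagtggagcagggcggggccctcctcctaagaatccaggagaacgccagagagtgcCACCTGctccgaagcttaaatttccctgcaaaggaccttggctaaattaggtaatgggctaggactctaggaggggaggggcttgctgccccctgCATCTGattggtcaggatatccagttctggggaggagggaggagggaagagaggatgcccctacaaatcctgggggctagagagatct
Mylpf, chr7:127211358-127211607, plus strand: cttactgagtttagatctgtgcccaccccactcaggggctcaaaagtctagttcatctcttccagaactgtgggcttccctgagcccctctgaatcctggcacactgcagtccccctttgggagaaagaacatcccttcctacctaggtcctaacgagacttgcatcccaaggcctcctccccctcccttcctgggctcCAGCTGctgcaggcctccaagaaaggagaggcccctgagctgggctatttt

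An E-box stood before all 10 starts, against 66.2% of 32851 promoters of the same length. MCAT stood before 3 of the 10 starts, those of Tnnc1, Myl3 and Myl1, against 12.6% of promoters. A CArG match stood before 1 start, that of Myl3, against 1.47% of promoters. No MEF2 match was found before any of the 10 starts, against 1.69% of promoters. The NFAT motif GGAAA, not marked above, stood before 4 of the 10 starts, against 55.6% of promoters. The 10 starts include 2 of Tnni1 whose windows overlap and 2 of Myl2 that lay 7762 and 8227 bases from an annotated start. These letters did not separate the slow from the fast genes.

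The genes were spread over 6 chromosomes on GRCm38, and all 10 were annotated as protein coding. The fast genes Tnni2 (chr7:142441808-142444410) and Tnnt3 (chr7:142498836-142516009) lay 54425 bases apart on the same strand. Mylpf (chr7:127208890-127214298) and the slow gene Tnnt1 (chr7:4504570-4516382) lay elsewhere on that chromosome, and Tnnt1 was 1922 bases from the cardiac troponin I gene Tnni3. Tnni1 (chr1:135779434-135810989) and Myl1 (chr1:66924295-66945404) shared chromosome 1. Tnnc1 (chr14:31208312-31211729), Myl2 (chr5:122100951-122113472), Myl3 (chr9:110741861-110769798) and Tnnc2 (chr2:164777161-164779967) were each alone. The longest stretch shared exactly by the transcripts of a slow gene and its fast partner was 16 to 22 bases, shorter than the 75-base windows in which shared sequence was counted. Tnnc2 overlapped Ube2c on the opposite strand, with 254 shared windows of 75 bases, and Myl3 overlapped Pth1r on the opposite strand, with 25. The library kit kept strand, but the strand setting of the counting was not given in the sources used here, so the values of Tnnc2 and Myl3 carry that uncertainty. Myl1 shared 167 such windows on the same strand with the processed pseudogene Mylf-ps, whose reads may not be separable from it.

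The deposited normalized counts summed to between 29815559 and 36489777 per sample, over 20799 to 23783 genes that were not at 0. Pdgfrb, the targeted gene, read 1673 to 1848 in controls, 958 to 1628 in knockout samples and 820 to 1062 in D489V samples. Whole muscle also contains cells in which the receptor was not described as altered. The muscle fibre markers Acta1, Ckm, Ttn, Des and Mb were high in all 15 samples, with Acta1 between 939485 and 1400228. The sample labelled knockout 3 went against its label of male, with 3165 normalized counts of Xist against 0 to 101 in the other 14. Member differences, slow-to-fast ratios, correlations and called related genes that moved with it are also given without it.

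Among the slow troponins, Tnnt1 (slow troponin T) read 2043, 4992, 2749, 8638 and 21783 normalized counts in controls 1 to 5, 586, 1928, 17556, 15659 and 13656 in knockouts 1 to 5, and 5439, 4143, 21242, 4060 and 4915 in D489V samples 1 to 5. Control 5 and D489V 3 were the highest samples and knockout 1 the lowest, and every group overlapped the other groups. Tnni1 (slow troponin I) read 657, 2366, 1258, 3442 and 8461 in controls, 168, 759, 7135, 6506 and 5853 in knockouts, and 2399, 2170, 10225, 2100 and 2393 in D489V samples. The knockout group fell into low samples, 1 and 2, and high samples, 3 to 5, with none between 759 and 5853. Tnnc1 (troponin C of slow and cardiac muscle) read 1365, 3660, 1736, 4305 and 11368 in controls, 241, 1068, 11990, 9214 and 7880 in knockouts, and 4182, 2981, 17332, 2969 and 3622 in D489V samples. In the D489V group, sample 3 stood alone above 4 samples that lay between 2969 and 4182.

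The slow light chains followed the same samples. Myl2, the regulatory light chain of slow and ventricular muscle, read 1834, 4247, 2042, 5396 and 13268 in controls, 297, 1482, 13660, 10101 and 8357 in knockouts, and 4122, 3496, 19445, 3445 and 3858 in D489V samples. Its values spanned 65.5-fold over the 15 samples. Myl3, the essential light chain of slow and ventricular muscle, read 2243, 4935, 3706, 9188 and 18575 in controls, 566, 2178, 18552, 14401 and 13203 in knockouts, and 5391, 4681, 20368, 5392 and 5896 in D489V samples. It spanned 36.0-fold, the narrowest span of the 5 slow genes, and Tnnc1 spanned 71.9-fold, the widest. In bulk RNA, fewer cells of a type and less RNA per cell cannot be told apart.

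The fast members were abundant and varied less than the slow members. Tnnt3 (fast troponin T) read 977348, 920464, 795648, 903300 and 717343 in controls, 979178, 767316, 754906, 718795 and 635037 in knockouts, and 1143657, 1039105, 1021945, 793293 and 868043 in D489V samples. Its highest values were in D489V 1 to 3 and its lowest in knockout 5, a span of 1.80-fold. Tnni2 (fast troponin I) read 359748, 284502, 212426, 287698 and 259912 in controls, 309869, 254196, 198897, 210514 and 228551 in knockouts, and 375895, 318140, 357045, 214925 and 235365 in D489V samples. Knockout 3 was the lowest and D489V 1 the highest. Tnnc2 (fast troponin C) read 410891, 375417, 305768, 397431 and 331325 in controls, 401231, 346414, 307646, 296529 and 328738 in knockouts, and 464637, 442119, 445143, 308725 and 329064 in D489V samples. The 3 highest values were those of D489V 1 to 3, while D489V 4 and 5 lay within the range of the knockouts.

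Of the fast light chains, Mylpf, the fast regulatory light chain, read 510652, 462177, 356602, 446028 and 346020 in controls, 511473, 413443, 228230, 302141 and 393598 in knockouts, and 543802, 486418, 482857, 357099 and 387180 in D489V samples. Knockout 3 was the lowest sample and the knockout group held both a value near the top and the lowest values. Myl1, the fast essential light chain, read 527048, 498729, 370901, 488764 and 399359 in controls, 373128, 421278, 284376, 320467 and 383765 in knockouts, and 535364, 490101, 516643, 362806 and 382015 in D489V samples. The highest knockout value, 421278, lay below 3 of the 5 controls and 3 of the 5 D489V samples. The groups overlapped for each of the 10 genes in each of the 3 comparisons.

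**Figure D1:**
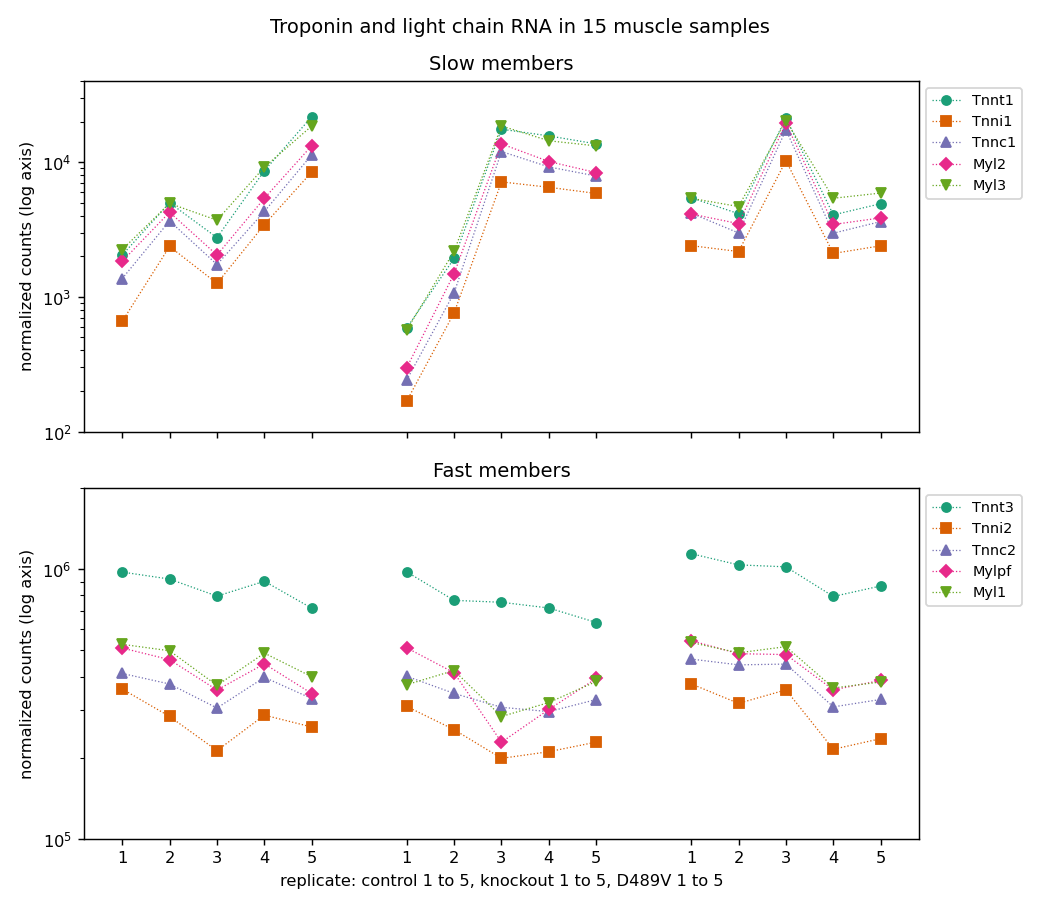
Normalized counts (log axes) of the 5 slow members (upper panel) and the 5 fast members (lower panel) in each replicate of the control, knockout and D489V groups; each point is a sample and dotted lines only join samples of a group. The slow genes move together over more than a 10-fold range, with Tnnt1 from 586 to 21783, while Tnnt3 stays between 635037 and 1143657.

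Per kilobase of exon, which allows genes to be compared, the order of levels was stable. Tnnt3 and Tnnc2 took the top places in each of the 15 samples, with means over 15 samples of 548974 and 457590 normalized counts per kilobase. Mylpf came next in every sample (390943), followed by Myl1 (204267) and Tnni2 (182930), which exchanged places between samples. The slow genes filled the lower places. Tnnc1 (5374), Myl3 (4216), Tnnt1 (3914) and Myl2 (3250) exchanged places among themselves and had SDs of 4715, 3253, 3326 and 2820, larger than the gaps between neighbours. Tnni1 was last in every sample, with a mean of 1035 (SD 866, n = 15).

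Summed per kilobase, the slow genes made up 0.0489% to 2.71% of the level of all 10 genes, with a median of 0.624%. The share was 0.211% to 2.44% in controls, 0.0489% to 2.71% in knockouts and 0.444% to 2.24% in D489V samples. The highest share was that of knockout 3, and without it the knockouts reached 2.09%. The fast forms made up the rest in each of the 15 samples. Within the essential light chains the share of Myl3 was 0.154% to 6.21% (4.51% at most without knockout 3), and within troponin I the share of Tnni1 was 0.0225% to 1.47%. With the longest annotated transcript as the length, the median slow share was 0.787%.

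The knockout against control comparison asks whether loss of the receptor changed the slow or fast forms. None of the 10 members passed an adjusted p of 0.05 with limma on log2(value + 1), and 0 of 10 had an unadjusted p under 0.05. Over all 15234 genes tested, 0.00656% passed the adjusted threshold, 15.1% the unadjusted one and 2.24% had groups that did not overlap. All 5 slow members had slightly lower log2 means in the knockout, with a median log2 change of -0.14, beside a median of 0.01 over all genes tested. Tnnt1 changed by -0.06 (SE 0.96, 95% interval -2.16 to 2.03) and Myl2 by -0.23 (SE 0.97, interval -2.34 to 1.88). These intervals allow falls and rises of about 4-fold (for Tnnt1, a fold of 0.224 to 4.09). The size of change that could have been detected with this spread was not computed. The arithmetic means went the other way for the slow genes, at 9877 ± 8003 for Tnnt1 in knockouts and 8041 ± 8101 in controls (SD, n = 5). The sign of the slow changes turned to positive for all 5 genes without knockout 1, without knockout 2 or without control 5, and for Tnnt1, Tnni1 and Myl3 without control 4. The change of Tnnt1 was 0.73 without knockout 1 and -0.49 without knockout 3.

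All 5 fast members also had lower log2 means in the knockout, with a median log2 change of -0.22. Myl1 had the largest difference, at 356603 ± 54121 in knockouts and 456960 ± 67809 in controls (SD, n = 5), a log2 change of -0.36 (SE 0.24, limma adjusted p = 0.454). Its exact two-sided permutation test gave p = 0.0556, the lowest of the 10 members in this comparison, where the highest was 0.976. The smallest p that 5 against 5 samples allow is 0.0079. Tnnc2 had the smallest of the fast differences, -0.12 (SE 0.22), and was 0.04 after quantile normalization. Without knockout 3 the fast changes were -0.28 (Myl1) to -0.08 (Mylpf, against -0.24 with it).

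The D489V against control comparison asks the same of the active receptor and shares its controls with the comparison above. No member passed the adjusted threshold, which 0.0587% of 15339 genes passed, and 0 of 10 had an unadjusted p under 0.05, against 9.43% of genes. Groups did not overlap for 0 of 10 members, against 2.16% of genes. The slow members had a median log2 change of 0.34 and the fast members of 0.09, beside 0.00189 over all genes. Tnnc1 had the largest change, 0.49 (SE 0.60, 95% interval -0.82 to 1.80), with 6217 ± 6234 in D489V samples and 4487 ± 4043 in controls (SD, n = 5). It was 0.02 without D489V 3, 0.17 without control 1 and 0.93 without control 5, and Tnni1, at 0.45, was 0.01 without D489V 3 and 0.92 without control 5. Without D489V 3, the change of Tnnt1 was -0.27 against 0.17 with it, and those of Myl2 and Myl3 also turned negative (-0.14 for both). Tnnt1 turned negative without control 1 or control 3 as well, and Myl3 without control 1. Exact permutation p-values ran from 0.214 (Tnnt3) to 0.968 (Myl1).

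Knockout and D489V samples, which carry opposite changes of the receptor, were compared directly because both tables hold the same control values. Here 20.8% of 15299 genes passed the adjusted threshold, 37.7% had an unadjusted p under 0.05 and 13.9% had groups that did not overlap. None of the 10 members did any of these. The 5 fast members had lower means in the knockout, with log2 changes of -0.23 (Tnnc2) to -0.35 (Myl1) and limma adjusted p-values of 0.242 to 0.429. After quantile normalization these changes were -0.04 (Tnnc2) to -0.26 (Tnnt3), and without knockout 3 they were -0.16 (Mylpf) to -0.33 (Tnnt3). Tnnt3 was 771046 ± 127301 in knockouts and 973209 ± 140712 in D489V samples (SD, n = 5), a log2 change of -0.34 (SE 0.25). Its exact permutation p was 0.0476, unadjusted and the lowest of the 30 such tests of the members. The slow members had log2 changes of -0.23 (Tnnt1) to -0.67 (Tnnc1), each with an SE of 0.85 to 0.97. Without knockout 1 all 5 slow changes turned positive, at 0.23 for Tnnc1, and without knockout 3 that of Tnnc1 was -1.18. Tnnt1 and Myl3 also turned positive without D489V 3, and Tnnt1 without knockout 2.

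**Figure D2:**
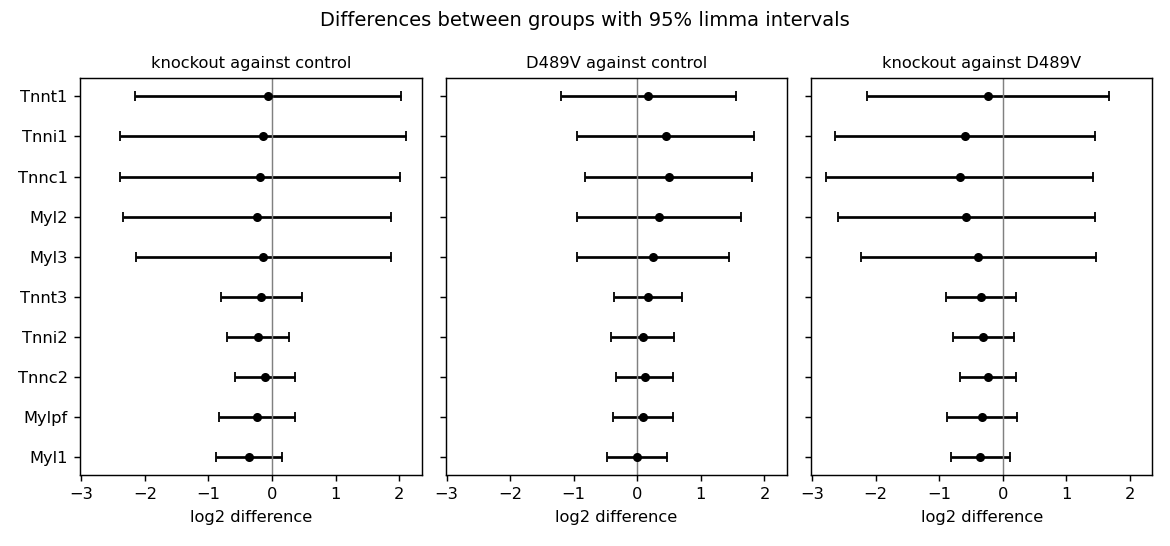
Log2 differences of the 10 members between groups in the 3 comparisons (x axis, log2 of value + 1; points are limma estimates and bars 95% intervals, 5 against 5 samples). All 30 intervals include 0, and the bars of the slow genes, such as -2.16 to 2.03 for Tnnt1 in knockout against control, are wider than those of the fast genes.

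The ratio of a slow gene to its fast partner within a sample does not move with the scaling of that sample. The mean log2 ratio of the 5 pairs was -8.45, -6.91, -7.43, -6.34 and -4.80 in controls 1 to 5, -10.47, -8.22, -4.58, -4.98 and -5.33 in knockouts and -7.10, -7.24, -4.94, -6.75 and -6.65 in D489V samples. Both the lowest and the highest ratios were in the knockout group, whose samples spanned 59.2-fold, against 12.5-fold in controls and 4.93-fold in D489V samples. Without knockout 3 the knockout span was 44.8-fold, and the highest mean ratio was that of control 5 (-4.80). None of the 15 ratio tests (5 pairs in 3 comparisons) differed between groups, with exact two-sided permutation p-values, unadjusted, of 0.579 to 1.0, and all groups overlapped. Tnnt1 to Tnnt3 averaged -7.27 ± 1.49 in controls, -7.17 ± 2.40 in knockouts and -7.27 ± 0.96 in D489V samples (log2, SD, n = 5). Myl2 to Mylpf averaged -6.68 ± 1.29, -6.68 ± 2.73 and -6.43 ± 1.02 in the same order. The group means differed by 0.44 at most (Tnnc1 to Tnnc2 in knockout against D489V, exact p = 0.738), which was smaller than the SD within any group. Without knockout 3 that difference was -0.98, and without knockout 1 it was 0.53.

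**Figure D3:**
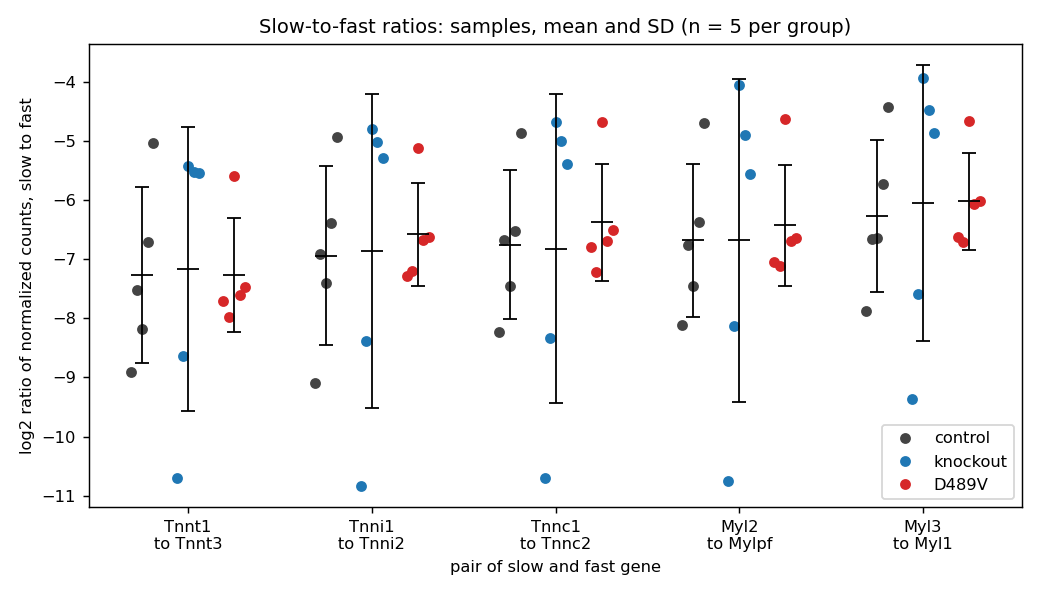
Log2 ratio of each slow gene to its fast partner (y axis) in the 3 groups; points are samples and black bars the mean and SD of 5 samples. The knockout points split into low and high samples, from -10.70 to -5.43 for Tnnt1 to Tnnt3, and the group means lie within the SDs of each other.

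Most of the variation of the slow genes lay within groups. Their within-group SD on the log2 scale was 1.52 (Myl3) to 1.71 (Tnni1), beside a median of 0.23 over 12159 genes with a mean of 50 or more, and only 66 to 93 of those genes had a larger SD than the slow members. The fast members had SDs of 0.21 (Tnnt3) to 0.33 (Mylpf). Tnnt3 lay at the 42.3 percentile of those genes, Tnni2 at the 69.8 percentile and Mylpf at the 75.1 percentile. The 3 groups accounted for 0.471% (Tnnt1) to 3.41% (Tnnc1) of the variance of the slow genes and for 17.7% (Mylpf) to 38.8% (Myl1) of that of the fast genes. The median over all of these genes was 26.6%.

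The slow members kept nearly fixed proportions to each other. Pearson's r of log2 values between slow members over 15 samples was 0.987 to 0.998 (10 pairs), and 0.991 to 0.998 after group means were subtracted. Ratios between slow members spanned 1.41-fold to 2.00-fold over the samples. The ratio of Tnnt1 to Tnni1 was 2.33 to 3.49 in knockouts and 1.91 to 2.27 in D489V samples, and that of Tnnt1 to Tnnc1 was 1.46 to 2.43 in knockouts and 1.23 to 1.39 in D489V samples. These were 2 of 10 slow ratios whose knockout and D489V groups did not overlap, and both hold Tnnt1. In the other comparisons 0 of 10 slow ratios were so placed. Of 10 fast ratios only Tnnc2 to Myl1 was, in D489V against control (0.851 to 0.902 and 0.753 to 0.830). Of single genes, 13.9% did not overlap in knockout against D489V and 2.16% in D489V against control. Such a share was not taken over ratios of other genes. The ratios named here are a description and were named after the values were seen. Between fast members r was 0.717 (Tnnt3 with Myl1) to 0.965, and their ratios spanned 1.35-fold to 2.05-fold. The widest fast span was that of Tnnt3 to Mylpf, with its top value, 3.31, in knockout 3. Without knockout 3 the ranges of r were 0.985 to 0.997 for slow pairs and 0.733 to 0.966 for fast pairs. The spans of these ratios were not recomputed without it. The samples share tissue and scaling, so these correlations are descriptions.

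The slow and the fast level showed no relation across samples that passed a permutation test. The mean of the slow genes and the mean of the fast genes had a Pearson's r of -0.31 (permutation p = 0.272) and a Spearman's rho of -0.22 (permutation p = 0.42) over 15 samples. Without D489V 3 and knockout 1, the samples farthest from the median slow level, r was -0.50 (permutation p = 0.0838) and rho -0.43 (permutation p = 0.149). With group means subtracted, r was -0.44 (permutation p = 0.101) and rho -0.39 (permutation p = 0.149). Without knockout 3, r was -0.19.

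**Figure D4:**
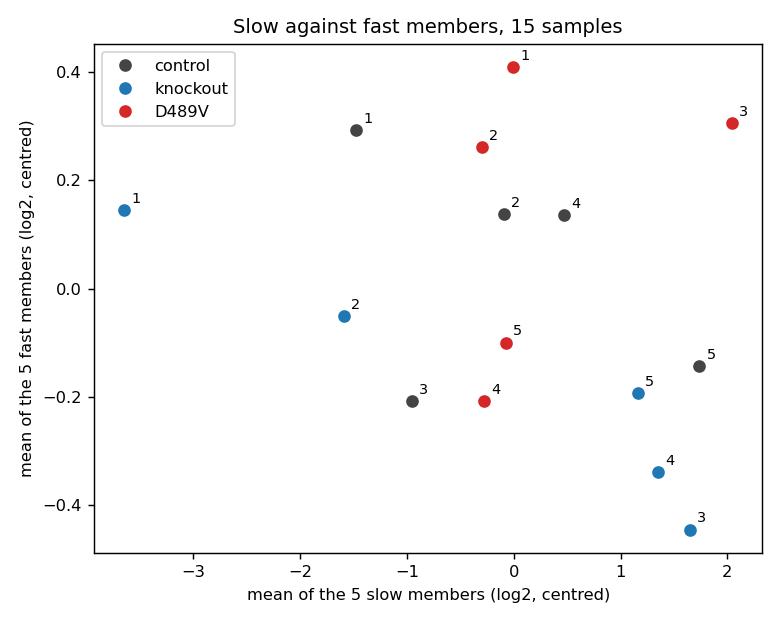
Mean centred log2 value of the 5 slow members (x axis) against that of the 5 fast members (y axis) for each of the 15 samples, coloured by group and numbered by replicate. The slow mean runs from -3.65 in knockout 1 to 2.04 in D489V 3, and the fast mean from -0.45 in knockout 3 to 0.41 in D489V 1.

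Of 12149 other genes with a mean of 50 or more, those most like the slow mean over 15 samples were Tpm3 (r = 0.993), the slow tropomyosin, and Myh7 (r = 0.991), the slow myosin heavy chain. Lgi1 (r = 0.953), Nlrc3 (r = 0.940) and Sln (r = 0.932), the gene for the calcium pump regulator sarcolipin, came next. Myh7 read 1581 in knockout 1 and 94986 in knockout 3, and Tpm3 read 1893 in knockout 1 and 36065 in D489V 3. Knockout 1 was also the lowest sample for each slow member. Lgi1 read 24 to 236 and Nlrc3 read 25 to 361, so both were low genes. The genes most like the fast mean were Pdgfa (r = 0.951), a ligand of the platelet-derived growth factor receptors, Ccdc28b (r = 0.942), Tpm1 (r = 0.935), Cox5b (r = 0.930) and Mrpl51 (r = 0.921). Pdgfa ranged from 962 in knockout 4 to 1875 in D489V 3. Cox5b encodes a subunit of cytochrome c oxidase and Mrpl51 a protein of the mitochondrial ribosome. Without knockout 3 the r of these 10 genes was 0.914 to 0.992.

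Other slow fibre genes followed the slow members only in part. Of 16 listed, 7 had r over 0.8 with the slow mean, namely Tpm3, Myh7, Sln, Myoz2, Myl6b, Myh7b and Atp2a2. Pln (r = 0.04), the inhibitor of the slow calcium pump, and Mybpc1 (r = 0.12), slow myosin binding protein C, did not follow them. Pln was a low gene, at 34 to 98. None of 16 other fast fibre genes had r under -0.8 with the slow mean, with Casq1 lowest at -0.65 and Myh2 highest at 0.55. These fast genes did not all follow the fast members either. Their r with the fast mean ran from -0.75 (Myh2) to 0.94 (Tpm1). It was 0.88 for Pvalb, 0.03 for Myh4 and -0.55 for Myh1. Among 22 fibre type regulators, Prox1, a factor known for holding the slow programme, had the highest r at 0.82 but read only 62 to 172. Tbx15, known for glycolytic fibres, had the lowest at -0.76.

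**Figure D5:**
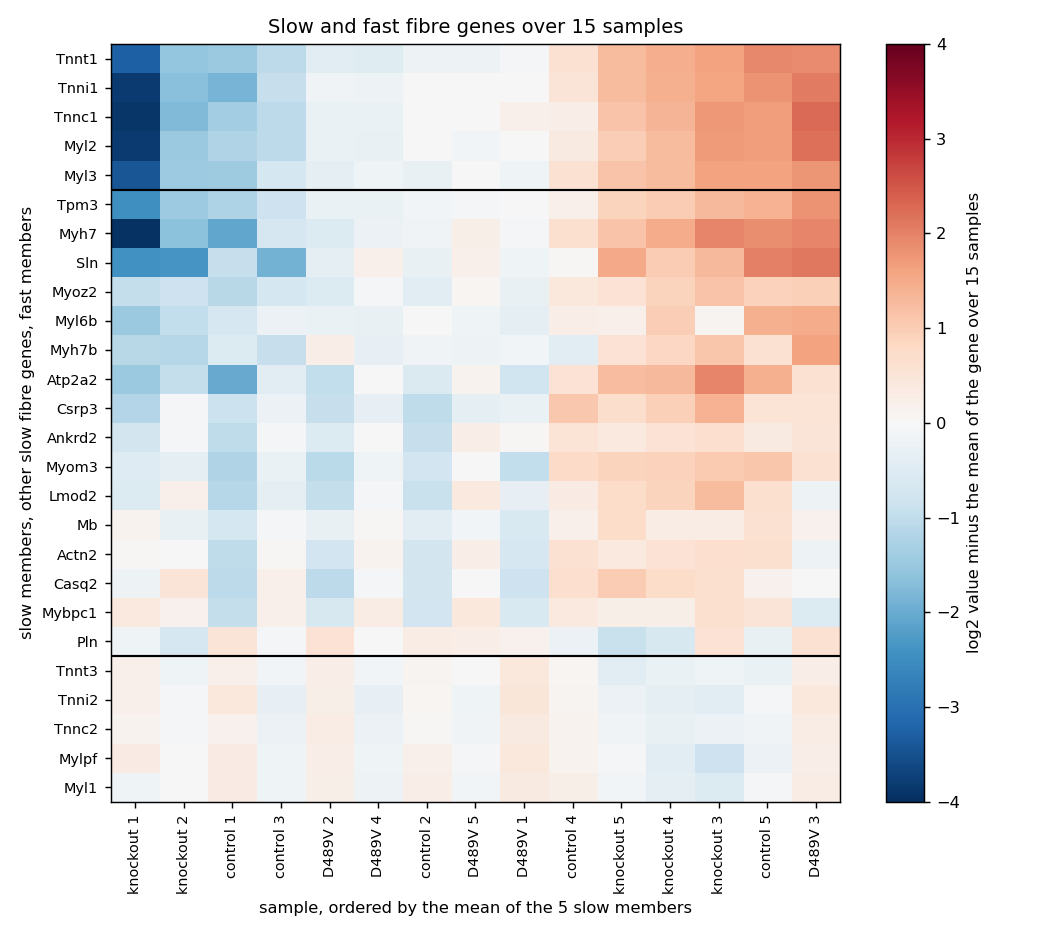
Log2 values minus each gene's mean over 15 samples (colour) for the 5 slow members, 16 other slow fibre genes and 5 fast members, in columns ordered by the mean of the slow members. Tpm3, Myh7 and Sln change with the slow members from knockout 1 to D489V 3, while Pln and Mybpc1 (r of 0.04 and 0.12 with the slow mean) do not. Pln is a low gene, at 34 to 98.

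The related genes were counted by the same fits. In knockout against control, no gene of the 5 related lists passed with limma. An unadjusted limma p under 0.05 was found for 0 of 16 slow genes, 1 of 16 fast genes and 1 of 10 relatives. It was also found for 0 of 10 thin filament and 5 of 22 regulator genes. Over all genes tested, 15.1% had such a p. The 16 other slow fibre genes had a median log2 change of 0.37, with Lmod2, a thin filament nucleator, at 0.80 (adjusted p = 0.346) and Casq2, the slow and cardiac calsequestrin, at 0.68 (adjusted p = 0.34). Among other fast genes Myh13, the extraocular myosin, was at -0.47 and Myoz3 at 0.46. Among relatives, embryonic Myh3 was at -0.64 and cardiac Tnnt2 at -0.59. Of the thin filament partners Lmod2 was at 0.80 and Tpm2 at -0.34. Among regulators Ppargc1a, a coactivator of mitochondrial genes, was at 0.96 (adjusted p = 0.302) and Esrrg at 0.86 (adjusted p = 0.396).

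In D489V against control, no listed gene passed with limma either. An unadjusted limma p under 0.05 was found for 3 of 10 relatives, 2 of 22 regulators and no gene of the other 3 lists. Over all genes tested, 9.43% had such a p. Slow genes Sln and Myh7b were at 0.59 and 0.54, and fast genes Myh2 and Myh13 at -0.48 and 0.36. Among relatives, Myl10 was at 0.78 (adjusted p = 0.267) and atrial Myl4 at 0.50 (adjusted p = 0.337). Of the thin filament partners, cardiac actin Actc1 was at -0.71 and Tpm3 at 0.36. Among regulators Rcan1, a target of calcineurin signalling, was at -0.47 and Nr4a1 at 0.45. The limma adjusted p-values of these 10 genes were all over 0.05.

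In knockout against D489V, each of the 5 lists held at least 1 called gene, and 20.8% of all genes tested were called. Of the other slow fibre genes, 1 of 16 was higher in the knockout, Casq2, at 2512 ± 704 against 1328 ± 419 (SD, n = 5; log2 change 0.93, SE 0.25, limma adjusted p = 0.0255). Of the other fast fibre genes, Myoz3 was higher (0.44, SE 0.14, adjusted p = 0.0414) and Myh13 lower (-0.83, SE 0.23, adjusted p = 0.0256). Of the cardiac, embryonic and smooth muscle relatives of the members, 5 of 10 tested were lower and none was higher. Myl10, a regulatory light chain gene, read 79, 80, 109, 59 and 61 in knockouts and 214, 195, 168, 128 and 210 in D489V samples. Its groups did not overlap (log2 change -1.24, SE 0.20, limma adjusted p = 0.00382). The other relatives called lower were Myh3 (-0.84), Myl12b (-0.83), Myl4 (-0.68) and Myl6 (-0.50). Of the thin filament partners 1 of 10 was lower, Tpm2, the beta tropomyosin, at 202871 ± 46815 against 318718 ± 33393 (SD, n = 5; log2 change -0.68, limma adjusted p = 0.0329).

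Among the fibre type regulators in the same comparison, 5 of 22 were higher and 1 was lower in the knockout. Rcan1 read 3733, 2947, 3131, 3534 and 2821 in knockouts and 1147, 1628, 2004, 1769 and 1560 in D489V samples, without overlap (log2 change 1.01, SE 0.14, limma adjusted p = 0.00218). Esrrg, an estrogen-related receptor known for oxidative fibres, was higher by 1.09 (SE 0.30, limma adjusted p = 0.0258). Tead1, which binds MCAT motifs, was higher by 0.50 (SE 0.11) and Mef2a, which binds MEF2 motifs, by 0.46 (SE 0.13). Hdac5, a histone deacetylase that represses MEF2 factors, was lower, with a log2 change of -0.44 (SE 0.10). Under quantile normalization the relatives called lower were 2 and the regulators called higher were 4. With the same sum in each sample the relatives called lower were 3. Over all 15299 genes tested, 3181 were called in the main fit, 2882 under quantile normalization and 2764 with the same sum. Leaving out knockout 3, 2273 of 15152 genes were called. Without knockout 3, 4 relatives were lower, 3 regulators higher and 1 lower, Casq2 still passed (0.90, limma adjusted p = 0.0493) and Myoz3 and Tpm2 did not (adjusted p = 0.0552 and 0.0549). Of the other genes named as called, Myl12b (adjusted p = 0.0566) and Mef2a (adjusted p = 0.0632) also no longer passed. Pln passed as lower (-0.91, limma adjusted p = 0.0185) and the thin filament gene Actc1 as higher (1.00, limma adjusted p = 0.0049), which neither did with all samples.

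Markers of other cells also moved between the knockout and D489V groups. Lower in the knockout were 5 of 5 endothelial, 5 of 5 nerve, 5 of 5 erythrocyte, 4 of 5 adipocyte and 3 of 5 smooth muscle markers. Over all genes tested, 20.8% were called in either direction. The marker calls were not repeated without knockout 3. That sample had the lowest knockout sum of endothelial (7501), nerve (5592), erythrocyte (3175) and adipocyte (5737) markers. Summed endothelial markers were 7501 to 11993 in knockouts, 13901 to 16124 in D489V samples and 12491 to 17892 in controls. Their part in the changes of the related genes was not tested. None of the 5 tendon, 5 satellite cell or 5 muscle fibre markers passed in this comparison.

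Some markers of other cells moved with the slow level in part of the samples. The summed lymphocyte and lymph node markers (Glycam1, Cd79a, Ms4a1 and Cd3e) read 39, 29, 14, 5 and 2207 in controls, 6, 17, 1111, 2227 and 688 in knockouts and 74, 45, 28, 106 and 55 in D489V samples. The 4 highest samples, control 5 and knockouts 3 to 5, were also among the 5 samples with the highest slow mean, but D489V 3, the highest of all, was at 28. Glycam1 was at 0 in 7 of the 15 samples. D489V 3 had the highest nerve markers, with a sum of 45477 against 11173 to 13627 in the other D489V samples. Knockout 3, also high in the slow mean, had a nerve sum of only 5592. The r of single nerve markers with the slow mean was 0.14 to 0.42. Of 5 tendon markers, the median r with the slow mean was -0.62, with a range of -0.83 to 0.08. The part of these cells in the slow levels was not tested. The cardiac markers Nppa and Myl7 were at 0 in 15 and 14 of the 15 samples, Tnni3 read 11 to 43 and Ryr2 2 to 22, while Myh6 read 155 to 2073. In D489V 3, where Myl2 was at 19445, Nppa and Myl7 were at 0 and Tnni3 was at 42.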

How the data were processed

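Poly(A) RNA was sequenced with a directional kit, per the labels' protocols. The deposited values are scores, namely normalized gene counts in whole numbers, made by the authors with a method that is not given in the sources used here. The submitters' processing notes name Trim Galore 0.6.0, cutadapt, FastQC, STAR 2.7.0e, DESeq2 1.26.0 and GRCm38, without their roles. The 2 tables were joined by gene identifier, and the 5 control columns were identical in both, so knockout and D489V samples were compared directly. Read depth is unknown. Count models were not run because the values are not raw counts.

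Groups came from the labels. In each comparison (5 samples a group), limma 3.58.1 under R 4.3.3 was run two-sided, with an eBayes trend, on log2(value + 1). Genes needed a value of 10 in 5 of the 10 samples, with Benjamini-Hochberg adjustment over all genes tested and a threshold of 0.05. Changes on this scale are understated for low genes. The script was tested on simulated data. Slow-to-fast ratios were tested by exact permutation in SciPy 1.17.1, and the relation of slow and fast means with 100000 permutations. Lengths, coordinates and overlaps came from GENCODE M21 and upstream sequences from RefSeq on GRCm38.p6.

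The members and all gene lists were chosen with earlier results of these data known. All 10 members are named. Of each related list, at most 5 called genes per comparison are named by size of change, and if none was called the 2 with the largest change and a mean of 50 or more. The 5 genes most like the slow mean and the 5 most like the fast mean are named. A marker gene of the lymphocyte list is not reported here. Alternatives were the pseudocount, filters, scalings, robust and weighted fits, a shared fit, a replicate block, and leaving out each sample. Deviations of samples with the same replicate number had correlations of -0.40 to 0.39, and pairing by number was not tested.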

Additional observations from a re-analysis of the deposited data

Results flagged for a closer look

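D489V replicate 3 stood far above the other 4 samples of its group in all 5 slow members. Its log2 value was 14.37 for Tnnt1 (11.99 to 12.41 in the other 4), 13.32 for Tnni1 (11.04 to 11.23), 14.08 for Tnnc1 (11.54 to 12.03), 14.25 for Myl2 (11.75 to 12.01) and 14.31 for Myl3 (12.19 to 12.53). The gap to the nearest sample was 0.806 to 0.916 of the whole range of the group, above the Dixon limit of 0.71 for 5 samples.

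Of the 5 slow-to-fast ratios, 3 of the same sample stood apart too, while Tnni1 to Tnni2 and Myl3 to Myl1 did not pass the limit. The log2 ratio was -5.59 for Tnnt1 to Tnnt3 (-7.97 to -7.46 in the other 4), -4.68 for Tnnc1 to Tnnc2 (-7.21 to -6.51), -4.63 for Myl2 to Mylpf (-7.12 to -6.65) and -4.94 for the mean of the 5 pairs (-7.24 to -6.65). In all, 9 of 48 sets of 5 values were marked, where chance marks about 2.4, and all 9 concern this sample and genes that vary together.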

How the results depend on the processing

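No member was called and no ratio differed between groups under any of the 60 and 36 alternatives run, with a lowest limma adjusted p over all member alternatives of 0.115 (Myl1, knockout against D489V). Of 600 recomputed member changes, 42 had the other sign, and of 180 recomputed ratio differences, 48 did, all of them with a sample left out. Quantile normalization gave 0.041 for Tnnc2 in knockout against control and -0.0743 for Tnni2 in D489V against control, and array weights gave 0.0103 for Myl1 in D489V against control. With group means subtracted, 6 of the 10 genes most like the members were the same, 4 of 5 for the slow mean and 2 of 5 for the fast mean. The cause was not tested.

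Leaving out each sample in turn, log2 changes in knockout against control ran from -0.49 to 0.73 for Tnnt1, -0.59 to 0.76 for Tnni1, -0.69 to 0.72 for Tnnc1, -0.73 to 0.65 for Myl2 and -0.59 to 0.67 for Myl3. In knockout against D489V they ran from -0.66 to 0.56, -1.04 to 0.31, -1.18 to 0.23, -1.07 to 0.31 and -0.83 to 0.43 in the same order. In both, the low end was without knockout 3 and the high end without knockout 1. In D489V against control they ran from -0.27 to 0.66 for Tnnt1, -0.14 to 0.77 for Myl2 and -0.14 to 0.66 for Myl3 (low without D489V 3, high without control 5), from 0.02 to 0.93 for Tnnc1 with the same samples left out, from 0.0032 (without control 1) to 0.92 (without control 5) for Tnni1, and from -0.0135 to 0.19 for Tnni2 and -0.0756 to 0.0753 for Myl1 (low without control 3, high without D489V 4).

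For the log2 ratios the ranges in knockout against control were -0.33 to 0.99 (Tnnt1 to Tnnt3), -0.46 to 1.07 (Tnni1 to Tnni2), -0.60 to 0.90 (Tnnc1 to Tnnc2), -0.65 to 1.02 (Myl2 to Mylpf) and -0.31 to 1.05 (Myl3 to Myl1). In D489V against control they were -0.42 to 0.56, -0.17 to 0.87, -0.0499 to 0.85, -0.20 to 0.75 and -0.15 to 0.71, and in knockout against D489V -0.33 to 0.99, -0.80 to 0.71, -0.98 to 0.53, -0.90 to 0.77 and -0.55 to 0.80. The spread of the slow genes and 5 samples per group limit what could be detected, and the depth is unknown. The fits without knockout 3 of related genes and correlations, and the scalings of related genes, were chosen after seeing the data.

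Correlations of same-numbered deviations ran from -0.40 to 0.39. They were not set against those of differently numbered samples, so pairing by replicate number was not tested. With the replicate block, 0 members were called, Tnnt1 in knockout against control kept its change of -0.06 (adjusted p = 0.966), and 5 pairs allow no exact p below 0.0625. In knockout against D489V, 2208 of 15299 genes were called with the block, against 3181 in the main fit. The block moved the other slow genes called higher in that comparison from 1 to 3. It moved the thin filament partners called lower from 1 to 0 (Tpm2, limma adjusted p = 0.0541). Among fast genes Myh13 (adjusted p = 0.0585) and Myoz3 (adjusted p = 0.064) no longer passed and Myh2 did, and among regulators Ppargc1a passed and Mef2c did not.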
